A study of Homo sapiens with 4 samples.

Results

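The 10 genes described here encode the core machinery that makes microRNAs and lets them silence messenger RNAs. They are DROSHA and DGCR8, XPO5, DICER1, the Argonaute genes AGO1, AGO2, AGO3 and AGO4, and TNRC6A and TNRC6B. They were chosen by name, with no measured value in the rule, and each matched 1 row on a primary chromosome, giving 10 of the 63677 genes counted. Their mRNA levels were compared after loss of HMGB1, an abundant chromatin protein that also binds RNA and whose decline accompanies entry into senescence. The cells were IMR90, normal human lung fibroblasts, of the isolates I90-10 and I90-79, labelled passage 5. Cells received a non-targeting control siRNA (NTC) or siRNA against HMGB1 with the reagent RNAiMAX for 72 h, and the methods of the study mention different siRNAs for IMR90 without saying which library received which. Poly(A) RNA was sequenced in 2 control and 2 HMGB1 knockdown libraries, 1 from each isolate in each group. All 4 libraries thus share the transfection, and an siRNA itself enters Argonaute proteins in every one of them.

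MicroRNAs are cut from long nuclear transcripts by the Microprocessor, formed by the RNase DROSHA and its RNA-binding partner DGCR8. Exportin-5, the product of XPO5, carries the resulting hairpins to the cytoplasm, where DICER1 cuts them to short duplexes. A single strand is then held by an Argonaute protein, of which AGO2 can itself slice a matching RNA, and the GW182 proteins encoded by TNRC6A, TNRC6B and TNRC6C link Argonaute to deadenylation, decapping and translational repression.

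The libraries held 29869338 and 35317010 counted reads in the control group and 29861687 and 31086475 in the knockdown group. Levels are given as CPM, a library's counts scaled with TMM factors to a common total, in the order control I90-10, control I90-79, knockdown I90-10 and knockdown I90-79. HMGB1 itself stood at 181, 237, 15.96 and 18.9 CPM. Both knockdown libraries were far below both controls, and the log2-fold change was −3.59 (SE, standard error, 0.19; adjusted p = 0.00751, Benjamini-Hochberg, by the quasi-likelihood test of edgeR). Unless another fit is named, the p-values below come from that test, fitted to 15398 genes. Here "called" means past the limits used in the study's methods, 0.01 for the adjusted p and 0.6 for the log2-fold change in either direction. With 2 libraries in each group, changes at an adjusted p below 0.05 are also named as such, and where a replicate block for the isolate alters a call, the value from that fit is added. Beyond the isolates, nothing shows that libraries came from independent cultures, so these p-values measure the spread among 4 libraries.

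The cell type was checked against marker genes. All 10 fibroblast markers were counted, led by COL1A1, and their summed level was 34802, 18862, 33731 and 21615 CPM, so that it was higher in both libraries of I90-10. None of the 10 passed an adjusted p of 0.05 in edgeR (2 had an unadjusted p below 0.05). The edgeR fit with the replicate block called 1 up, LUM (0.83, adjusted p = 0.0029), and 2 down, THY1 (−0.99, adjusted p = 3.1e-04) and PDGFRB (−0.68, adjusted p = 0.0026). In that fit 6.68% and 7.84% of all genes were called up and down. With RUVs and DESeq2, described below, LUM (1.05), FAP (0.84), COL3A1 (0.68) and DCN (0.66) were called up. THY1 (−0.37) and PDGFRB (−0.23) were not called there. The shares of all genes called in the RUVs fit were not computed, so these calls have no background beside them. Leaving out 1 library moved THY1 between −1.74 and −0.31. The 6 epithelial markers summed to 6.196, 1.303, 4.09 and 1.15 CPM, led by KRT19 in 3 of 4 libraries, with KRT5 and ESRP1 at 0 in all 4 libraries. The 5 immune cell markers summed to at most 0.173 CPM in any library, and 3 of them were at 0 throughout. Exons of other genes cover 85.8% of the exonic bases of the immune marker CD68, so its counts are uncertain. Of the endothelial markers, 4 of 5 were matched. They summed to 150, 149, 136 and 135 CPM, nearly all of it TEK, while the defining gene CDH5 was at 0 and VWF stood at 1.36, 0.923, 4.16 and 2.59 CPM. VWF was thus higher in both knockdown libraries, with a log2-fold change of 1.57 (adjusted p = 0.0681, and 0.0036 with the block, which calls it), and the part of these markers in the changes below was not tested. In bulk RNA, fewer cells of a kind and less RNA per cell cannot be told apart.

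All 10 members passed the filter on low counts and were tested. At the study's thresholds 0 members were upregulated and 0 were downregulated, against 0.0649% and 0.136% of all genes tested. The study itself normalized with RUVs, which estimates factors of unwanted variation, before DESeq2, and does not name the number of factors. With RUVs (1 factor) and DESeq2, 1 member was called up, AGO1, and 1 down, DICER1, and with DESeq2 alone 1 was called down, DICER1. The shares of all genes called in these DESeq2 fits were not computed, so the counts are not set against them. In the edgeR test at an adjusted p below 0.05 with any fold change, 0 members rose and 1, DICER1, fell, against 3.94% of all genes that rose and 4.5% that fell. At an unadjusted p below 0.05, 3 rose (AGO1, AGO4 and TNRC6B) and 1 fell (DICER1), where 13.6% of all genes rose and 14.7% fell. Point estimates were positive for 8 members and negative for 2, with a median log2-fold change of 0.24 where the median of all genes tested was −0.01. In 7 members both knockdown libraries lay above both controls and in 1 both lay below, which was the case for 29.8% and 30.2% of all genes.

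**Figure D1:**
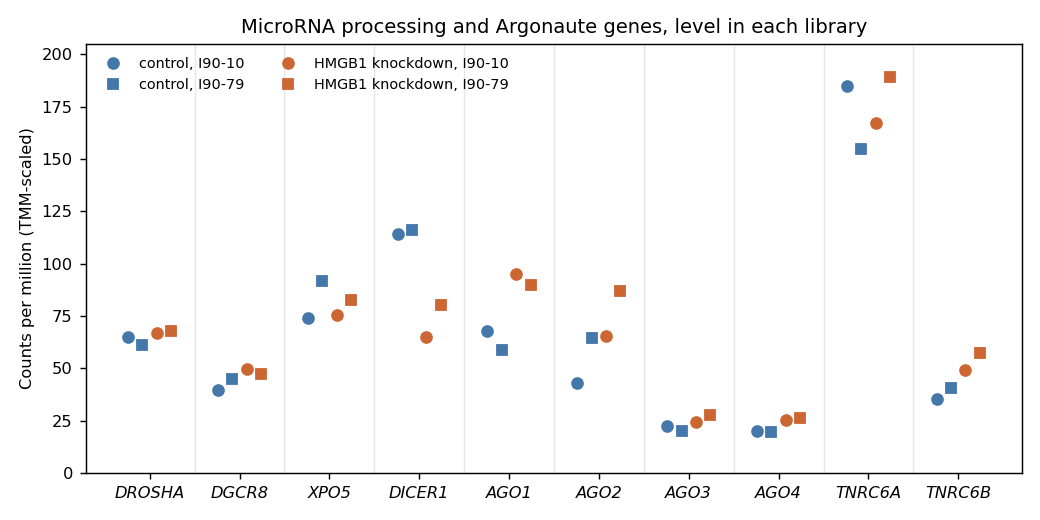
Level of the 10 members in each library, in CPM on a linear axis from 0, with controls in blue, knockdown libraries in orange, circles for I90-10 and squares for I90-79. DICER1 is the member whose knockdown libraries, at 64.9 and 80.02 CPM, both lie below the controls, and the 4 Argonaute genes each have both knockdown libraries above both controls.

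When the isolate entered the fit as a replicate block, the difference between I90-10 and I90-79 left the spread and many more genes passed. The study's thresholds were then met by 0 members going up and by DICER1 going down, where 6.68% and 7.84% of all genes were called. At an adjusted p below 0.05 in that fit, 4 members rose, AGO1, AGO2, AGO4 and TNRC6B, and 1, DICER1, fell, where 15.9% of all genes rose and 16.3% fell.

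The Microprocessor genes act first in the pathway, and neither passed the test. DROSHA (ENSG00000113360, hg19 chromosome 5 from 31400604 to 31532303, minus strand), the RNase that cuts the primary transcript, stood at 64.9, 61.1, 67.1 and 67.6 CPM. Its knockdown values lay just above the controls, and the log2-fold change of 0.10 (SE 0.11, adjusted p = 0.601) was within its error. DGCR8 (ENSG00000128191, chromosome 22 from 20067755 to 20099400, plus strand), which positions DROSHA on the hairpin, stood at 39.4, 44.9, 49.5 and 47.2 CPM, with a log2-fold change of 0.20 (SE 0.12, adjusted p = 0.345). Its groups did not overlap, but the nearest values of the groups differed by less than the controls did from each other. Exons of other genes cover 9.58% of the exonic bases of DGCR8, so a part of its counts is uncertain. The ratio of DROSHA to DGCR8 in CPM was 1.65, 1.36, 1.35 and 1.43, and the groups overlapped.

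XPO5 (ENSG00000124571, chromosome 6 from 43490072 to 43543812, minus strand), the export receptor, stood at 73.9, 91.8, 75.6 and 82.7 CPM. Both knockdown values fell between the controls, and the log2-fold change was −0.07 (SE 0.15, adjusted p = 0.80). Its estimate took the opposite sign, 0.10, without control replicate 2, the control library of I90-79.

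DICER1 (ENSG00000100697, chromosome 14 from 95552565 to 95624347, minus strand) was the member that fell. The RNase that turns hairpin precursors into mature duplexes, it stood at 114, 116, 64.9 and 80.02 CPM, or 3358, 4282, 1873 and 2499 reads. The controls were nearly equal, with a mean of 115 CPM (SD 1.33, n = 2), and both knockdown libraries were well below them, with a mean of 72.4 CPM (SD 10.7, n = 2). The log2-fold change of −0.67 (SE 0.14, adjusted p = 0.0488 from edgeR) is a fall of 1.59-fold. It was −0.82 in I90-10 and −0.54 in I90-79, and in the fit with the replicate block −0.68 (SE 0.11, adjusted p = 0.0022), which passes the study's thresholds. It also passed them with RUVs and DESeq2, at −0.75 (adjusted p = 6.9e-05), and with DESeq2 alone, at −0.67 (adjusted p = 0.004). Of all genes tested, 13.6% had a lower log2-fold change than DICER1. With each library left out in turn it stayed between −0.83 and −0.53, while the adjusted p was 0.058 to 0.18 and so missed 0.05 each time. The antisense gene DICER1-AS1 covers 0.651% of its exonic bases.

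**Figure D2:**
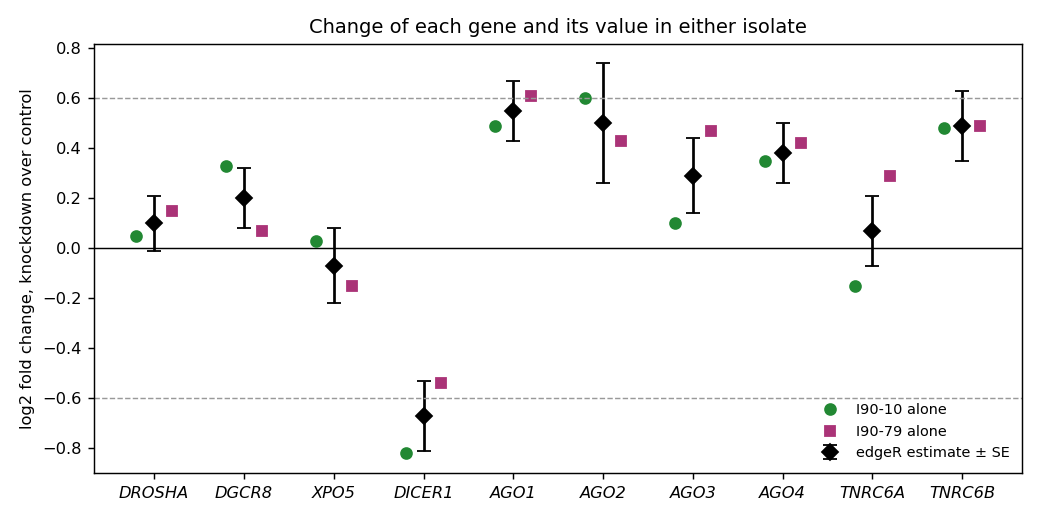
Log2-fold change of each member, knockdown over control, with the edgeR estimate and its standard error as black diamonds and the ratio within I90-10 (circles) and I90-79 (squares) beside it. Dashed lines mark the threshold of 0.6 in either direction, and among the members only the estimate of DICER1, −0.67, lies beyond it, while XPO5 and TNRC6A have isolates on opposite sides of 0.

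The Argonaute genes had positive estimates in all 4 cases and in both isolates, with a median log2-fold change of 0.44, and none was called. Of all 15398 genes tested, 5987 were higher after knockdown in both isolates. AGO1 (ENSG00000092847, chromosome 1 from 36335409 to 36395211, plus strand), which silences through its partners, stood at 67.8, 58.9, 95.1 and 89.9 CPM. Both knockdown libraries exceeded both controls by more than the spread within either group, and the log2-fold change was 0.55 (SE 0.12, adjusted p = 0.0574). With the replicate block the adjusted p was 0.0039, and the log2-fold change of 0.55 stayed under 0.6. With RUVs and DESeq2 it was called upregulated, at 0.63 (adjusted p = 7.4e-04). Of all genes tested, 86.7% had a lower log2-fold change.

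AGO2 (ENSG00000123908, chromosome 8 from 141541264 to 141645718, minus strand), the slicing Argonaute, stood at 43.1, 64.5, 65.3 and 86.8 CPM. Its controls differed by a larger ratio than those of any other member, and the control library of I90-79 was level with the knockdown library of I90-10. The log2-fold change was 0.50 (SE 0.24, adjusted p = 0.245) without the isolate in the fit and 0.51 (SE 0.10, adjusted p = 0.0065) with the replicate block. Within the isolates the change was 0.60 and 0.43, and it was 0.25 (adjusted p = 0.30) with RUVs and DESeq2. The estimate rested on single libraries: it was 0.24 without control replicate 1 (adjusted p = 0.61), 0.82 without control replicate 2 (adjusted p = 0.047), 0.69 without knockdown replicate 1 and 0.28 without knockdown replicate 2.

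AGO3 (ENSG00000126070, chromosome 1 from 36396319 to 36538101, plus strand) stood at 22.4, 19.9, 24.1 and 27.5 CPM. Its log2-fold change of 0.29 (SE 0.15, adjusted p = 0.261) was 0.10 in I90-10 and 0.47 in I90-79, and the replicate block left it at an adjusted p of 0.12. AGO4 (ENSG00000134698, chromosome 1 from 36273773 to 36323491, plus strand) stood at 19.98, 19.6, 25.5 and 26.3 CPM. Its libraries differed by less than 1 CPM within either group, and the log2-fold change of 0.38 (SE 0.12) had an adjusted p of 0.121, or 0.033 with the replicate block.

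AGO4, AGO1 and AGO3 are neighbours in this order on the plus strand of chromosome 1, with 11917 bases between the first pair and 1107 between the second. Of 11 genes tested within 200 kb of their span, a window chosen after the Argonaute values were seen, the 3 genes on the AGO4 side also had positive estimates. These were 0.45 for the proteasome subunit gene PSMB2 (adjusted p = 0.0952), 0.54 for C1orf216 (adjusted p = 0.05) and 0.25 for CLSPN (adjusted p = 0.676), all from edgeR. On the AGO3 side the log2-fold change was −0.16 for ADPRS, −0.72 for the weakly expressed COL8A2 (adjusted p = 0.537), 0.18 for TRAPPC3, −0.03 for MAP7D1 and 0.06 for THRAP3. All 11 genes of the window missed an adjusted p of 0.01.

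Levels can be set side by side only per length, as RPKM, CPM per kilobase of annotated exon. In the controls the order was TNRC6A with 13.6 RPKM, AGO2 with 11.2, XPO5 with 9.73, DICER1 with 9.38, DROSHA with 8.098, DGCR8 with 5.76, AGO1 with 4.92, AGO4 with 2.73, TNRC6B with 1.89 and AGO3 with 0.995. This order depends on the lengths used. Per kilobase of the canonical transcript in a later annotation, a choice added after the values were seen, it was TNRC6A with 20.03 CPM, XPO5 with 15.6, DROSHA with 11.6, DICER1 with 11.1, DGCR8 with 9.35, AGO1 with 4.62, AGO2 with 3.69, AGO4 with 2.72, TNRC6B with 2.07 and AGO3 with 1.07. By either length TNRC6A had the highest mean, and AGO1, AGO4, TNRC6B and AGO3 kept this order among themselves with control ranges that did not overlap. AGO2 moved most, since the files count 4824 exonic bases for it and its canonical transcript has 14595. Its reads were counted over the shorter length only. The lower value therefore follows from the division and does not rank AGO2 among the members. DICER1 and DROSHA changed places. In the knockdown libraries DICER1 stood below AGO1 by RPKM, at 5.89 and 7.18, and level with it per kilobase of canonical transcript, at 6.98 and 6.75 CPM with overlapping ranges. By RPKM, AGO2 gave the largest share of the summed Argonaute level, 49.7, 62.0, 53.0 and 60.2%, followed by AGO1 with 29.2, 21.2, 28.9 and 23.3%. That order rests on the exons of the files too, 4824 bases for AGO2 and 12886 for AGO1. By CPM the share of AGO1 was 44.2, 36.2, 45.3 and 39.0% and that of AGO2 28.1, 39.6, 31.1 and 37.7%. These shares take no account of length, so they do not rank the 2 genes.

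**Figure D3:**
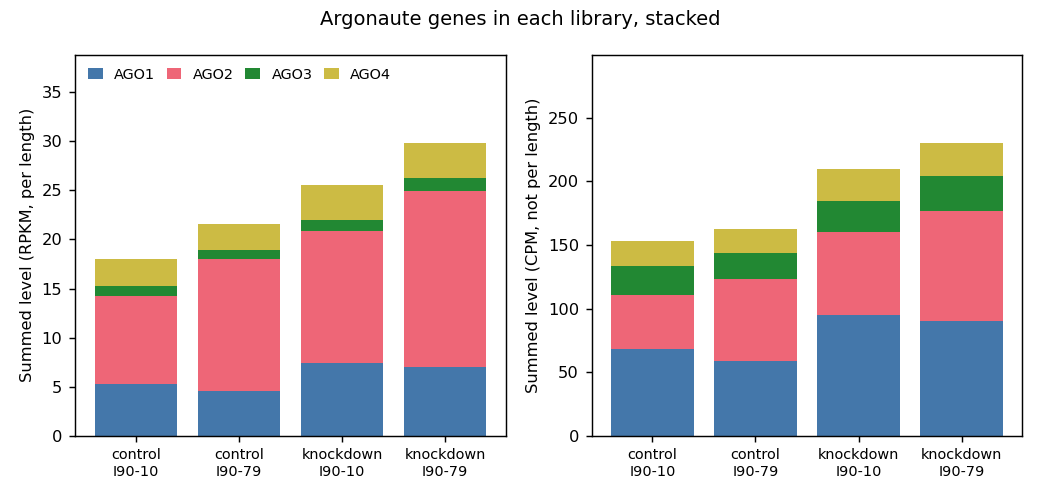
Stacked level of the 4 Argonaute genes in each library, per length in RPKM (left) and in CPM (right), both axes starting at 0. The sum is higher in both knockdown libraries on either scale, while the shares by RPKM overlap between the groups. By CPM the AGO3 shares of the knockdown libraries, 11.5 and 11.9%, lie under those of the controls, 14.6 and 12.2%.

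Summed over the 4 genes, the Argonaute level was 18.0, 21.6, 25.6 and 29.9 RPKM, or 153, 163, 210 and 230 CPM. Both knockdown libraries had the larger sum. In the make-up by RPKM, the mean share from control to knockdown differed by 0.92 percentage points for AGO1, by 0.78 for AGO2, by −0.71 for AGO3 and by −0.99 for AGO4. The SD of these shares among the controls, which come from different isolates, was 5.7, 8.7, 1.1 and 1.9 points. Within the isolates, the share of AGO4 went from 15.3 to 13.7% in I90-10 and from 12.5 to 12.1% in I90-79, lower in both, while that of AGO1 went from 29.2 to 28.9% and from 21.2 to 23.3%. By CPM the share of AGO1 was higher, and those of AGO3 and AGO4 were lower, after knockdown in both isolates. An exact permutation test of 2 against 2 libraries cannot give a p below 1 in 3, so nothing is read from it about these shares. As DICER1 went the other way, the summed Argonaute CPM per CPM of DICER1 was 1.34, 1.40, 3.24 and 2.88, a description that follows from the values above.

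TNRC6A and TNRC6B, the GW182 scaffolds that bind Argonaute and recruit the deadenylases, are described next, and the difference between them was not tested. TNRC6A (ENSG00000090905, chromosome 16 from 24741016 to 24838953, plus strand) stood at 185, 155, 167 and 189 CPM. The groups overlapped, the isolates went in opposite directions, and the log2-fold change was 0.07 (SE 0.14, adjusted p = 0.791). TNRC6B (ENSG00000100354, chromosome 22 from 40440821 to 40731812, plus strand) stood at 35.2, 40.5, 49.2 and 57.1 CPM. Its isolates gave nearly the same change, 0.48 and 0.49, and the log2-fold change of 0.49 (SE 0.14) had an adjusted p of 0.0958, or 0.0072 with the replicate block. The remaining paralogue TNRC6C, not among the members, stood at 13.4, 14.7, 7.998 and 9.61 CPM, with a log2-fold change of −0.68 (SE 0.18, adjusted p = 0.0797, and 0.0088 with the block, where it is called downregulated). Exons of other genes cover 25.8% of its exonic bases.

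**Figure D4:**
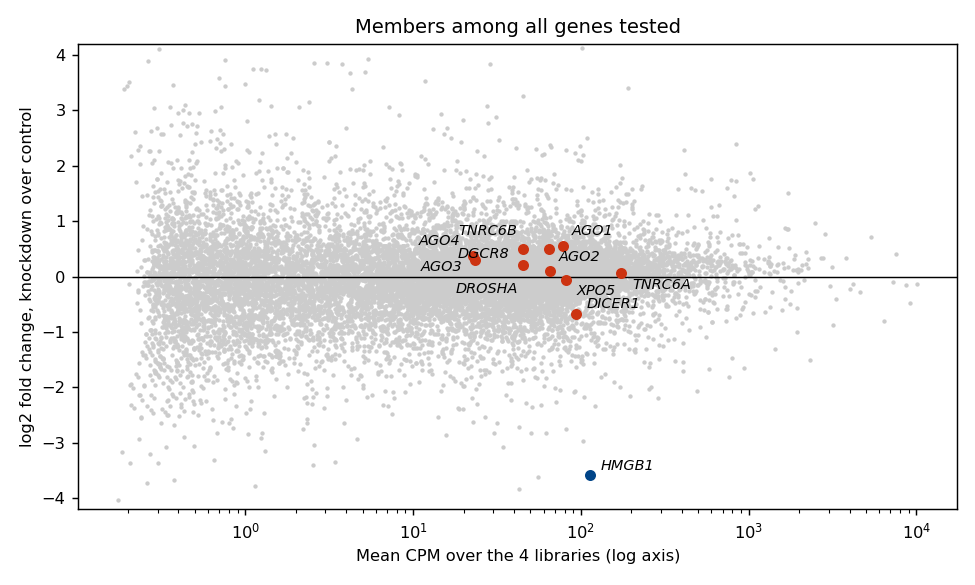
Log2-fold change against mean CPM (log axis) for the 15398 genes tested (grey), with the 10 members in red and HMGB1 in blue, and 24 genes beyond the axis limit of 4.2 left out. The members lie inside the main cloud at moderate levels, and HMGB1, at −3.59, lies at its lower edge.

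Other genes of the pathway were taken from 7 lists of 97 genes, of which 95 were found in the files and 90 tested. In these, 0 genes were called upregulated and 1, LSM14A, was called downregulated. At an adjusted p below 0.05, 4 rose and 8 fell, where 3.94% and 4.5% of all genes did. The counts given below for each list use that limit, and the same shares of all genes stand beside them. The median log2-fold change was −0.05, and with the replicate block 5 were called up- and 14 downregulated, where 6.68% and 7.84% of all genes were. For these 12 genes the largest adjusted p over the alternatives lay between 0.054 and 0.17, so that none held at 0.05 under every one of them.

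Among 13 cofactors of nuclear processing, 1 rose and 1 fell at an adjusted p below 0.05. ERH, a small protein that binds DGCR8 and helps the Microprocessor with poor hairpins, stood at 96.3, 103, 31.5 and 34.7 CPM. Both knockdown libraries were about alike and far under the controls, with a log2-fold change of −1.59 (SE 0.12, adjusted p = 0.0104), called with the replicate block at −1.59 (adjusted p = 5.2e-05). Exons of SLC39A9 on the opposite strand cover 25.9% of its exonic bases, and the strand setting of the counting is not given in the sources used here. NCBP2, the cap-binding subunit that works with SRRT on primary transcripts, rose with a log2-fold change of 0.65 (adjusted p = 0.0325, and 0.0016 with the block, which calls it). The helicase gene DDX17, also of the Microprocessor, had −0.45 (adjusted p = 0.0974).

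Of the 4 genes of export and nuclear transport, 2 fell and 0 rose at an adjusted p below 0.05. RAN, the GTPase that exportin-5 needs to hold its cargo, stood at 357, 412, 124 and 124 CPM. Its log2-fold change of −1.63 (SE 0.13, adjusted p = 0.0104) just missed the limit of 0.01 in edgeR without the block. With the replicate block RAN was called, at −1.63 (adjusted p = 5.2e-05). It was also called with RUVs and DESeq2, at −1.69 (adjusted p = 1.9e-29), and with DESeq2 alone, at −1.63 (adjusted p = 1e-20). The study names RAN among the HMGB1 partners that went down both in senescence and after knockdown. IPO8, an importin that also binds Argonaute, stood at 83.3, 78.3, 42.9 and 50.02 CPM, with a log2-fold change of −0.80 (SE 0.13, adjusted p = 0.0292, and 0.0013 with the block, which calls it). XPO1, the general export receptor, had 0.23 (adjusted p = 0.387).

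Of 8 Dicer partners and precursor-editing genes, 6 were tested, and 1 rose at an adjusted p below 0.05. TUT7, which adds uridines to precursor hairpins, stood at 54.9, 60, 87.6 and 109 CPM, with a log2-fold change of 0.78 (SE 0.15, adjusted p = 0.0418, and 9.9e-04 with the block, which calls it). TARBP2, the RNA-binding partner of DICER1, stood at 32.9, 39.97, 24.1 and 23.3 CPM. Both knockdown libraries were below both controls, and the log2-fold change of −0.62 (SE 0.15) had an adjusted p of 0.0629, or 0.0062 with the block, which calls it. The ratio of DICER1 to TARBP2 in CPM was 3.48, 2.91, 2.69 and 3.43, with overlapping groups. LIN28B, which blocks let-7 maturation, was at 0 in all libraries, and LIN28A at 0 in 3 of 4, where 3 counts would be at most 0.104 CPM. DIS3L2, the nuclease for uridylated precursors, had 0.11 (adjusted p = 0.61).

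Of 20 genes for loading and regulation of Argonaute, 19 were tested, and 1 rose and 1 fell at an adjusted p below 0.05. FKBP4, a co-chaperone of HSP90 in Argonaute loading, stood at 68.5, 111, 192 and 239 CPM, and its log2-fold change of 1.26 (SE 0.26, adjusted p = 0.0488) was 1.29 with the block (adjusted p = 1.8e-04), which calls it. Exons of genes on the opposite strand cover 12.8% of the exonic bases of FKBP4, so a part of its counts is uncertain. WTIP, a LIM protein of processing bodies, stood at 22.3, 18.5, 9.11 and 9.86 CPM, with −1.10 (SE 0.17, adjusted p = 0.0272, and 0.0012 with the block, which calls it). FKBP5, the related co-chaperone, had −0.49 (adjusted p = 0.0764).

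Of 28 silencing effectors 27 were tested, 1 rose and 2 fell at an adjusted p below 0.05. LSM14A, a processing body protein of translational repression, stood at 107, 103, 30.5 and 33.7 CPM. The groups were far apart, and its log2-fold change of −1.71 (SE 0.12, adjusted p = 0.00963) was the called one among the 90 genes. Without knockdown replicate 1 the adjusted p was 0.054 and without knockdown replicate 2 it was 0.043, with log2-fold changes of −1.64 and −1.78. PABPC1, the poly(A)-binding protein that GW182 contacts, stood at 816, 733, 446 and 429 CPM, with −0.82 (adjusted p = 0.031, and 5.7e-04 with the block, which calls it). CNOT6, a deadenylase subunit of the CCR4-NOT complex, stood at 35.1, 40.7, 72.2 and 69.1 CPM, with 0.90 (SE 0.13, adjusted p = 0.0225, and 6.8e-04 with the block, which calls it).

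Of 20 microRNA host genes, whose transcripts carry microRNA hairpins, 19 were tested, and 0 rose and 2 fell at an adjusted p below 0.05. MIR503HG stood at 15.1, 10.01, 4.09 and 3.71 CPM, with −1.69 (SE 0.26, adjusted p = 0.0278), and CTDSPL, a phosphatase gene that hosts a microRNA of the miR-26 family, at 48.7, 41.9, 25.2 and 24.2 CPM, with −0.87 (SE 0.13, adjusted p = 0.0262). Both are called with the replicate block (adjusted p = 4.5e-04 and 6.9e-04). COPZ1, a coatomer gene that hosts miR-148b, had −0.62 (adjusted p = 0.0533, and 0.0018 with the block, which calls it). In all, the block called 6 of the 19 host genes down and 1 up, where 7.84% and 6.68% of all genes were called. The further falls were those of MIR210HG (−1.74, adjusted p = 0.0015), the actin regulator gene EVL (−0.83, adjusted p = 9.3e-04) and VMP1 (−0.63, adjusted p = 0.0023), and the rise was that of the replication helicase gene MCM7 (1.01, adjusted p = 0.0012). These genes fall outside the rule for named genes and were added after their values were seen. Without the block their adjusted p from edgeR was 0.112, 0.205, 0.074 and 0.121. With RUVs and DESeq2, MIR210HG (−1.26, adjusted p = 0.022) and EVL (−0.44, adjusted p = 0.094) were not called. VMP1 (−0.75, adjusted p = 1.7e-05) and MCM7 (0.69, adjusted p = 6.1e-04) were called in that fit. Leaving out 1 library moved MIR210HG between −2.56 and −1.10, EVL between −1.29 and −0.43 and MCM7 between 0.58 and 1.47. All host gene values are levels of the spliced, polyadenylated hosts, and the microRNAs themselves were not measured in these libraries.

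The PIWI genes, the germline branch of the Argonaute family, were near absent. PIWIL1 had 0 counts in every library, which allows up to 0.102, 0.0814, 0.104 and 0.0961 CPM (3 counts, counting error only), and PIWIL3 had at most 0.0346 CPM. PIWIL2 stood at 1.36, 0.597, 1.04 and 0.224 CPM and PIWIL4 at 1.09, 0.5699, 0.658 and 0.672 CPM. Neither passed the test (adjusted p = 0.643 and 0.708 from edgeR), and both took the opposite sign when a library was left out.

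**Figure D5:**
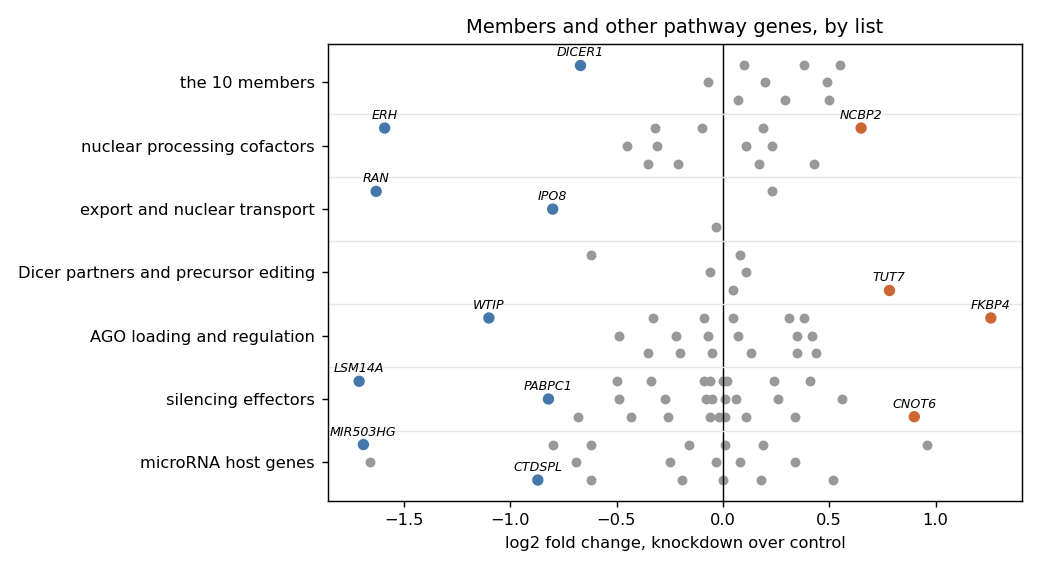
Log2-fold change, knockdown over control, of the members and of the other pathway genes tested, by list, without the PIWI genes. Coloured and named points have an adjusted p below 0.05 (orange rose, blue fell) and points are spread vertically only to keep them apart. DICER1 is the coloured point among the members, and of the coloured points LSM14A, MIR503HG, RAN and ERH lie farthest to the left.

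The 3′ UTRs of the members were read for the word GCAGTT, which earlier work on these same libraries had picked because genes that hold it were lower after knockdown. It is therefore given as a description. Of 12358 genes tested with a 3′ UTR of at least 100 bases, 36.2% hold the word, and the median log2-fold change was 0.07 with 0 copies, −0.10 with 1, −0.22 with 2 and −0.32 with 3 or more. Among the members AGO1 holds 4 copies, AGO2 7, AGO3 5, DICER1 2, AGO4, TNRC6A and TNRC6B 1 each, and DROSHA, DGCR8 and XPO5 0. Per kilobase of 3′ UTR this is 0.589 copies in AGO2, 0.468 in DICER1, 0.415 in TNRC6A, 0.366 in AGO1, 0.298 in AGO3, 0.233 in AGO4 and 0.0796 in TNRC6B, against 0.288 over all these genes. Among the other pathway genes that fell at an adjusted p below 0.05, RAN holds 5 copies in its 3′ UTR, WTIP 4, IPO8 and CTDSPL 2, ERH and LSM14A 1, and PABPC1 0. Of those that rose, FKBP4 holds 1 copy and NCBP2, TUT7 and CNOT6 hold 0. Apart from RAN and WTIP, the other pathway genes with 3 or more copies did not pass an adjusted p of 0.05 without the block. Their log2-fold change was −0.50 for DCP2 and −0.09 for CSNK1A1, with 4 copies each, and −0.35 for HNRNPA1 and −0.09 for XRN1, with 3 each. With the block the adjusted p from edgeR was 0.015 for DCP2, 0.53 for CSNK1A1, 0.023 for HNRNPA1 and 0.61 for XRN1. Exons of another gene cover 50.1% of the exonic bases of CSNK1A1, so its counts are uncertain. The 3′ UTRs come from the later annotation: of these copies, 0 of the 7 in AGO2, 2 of the 4 in WTIP and 0 of the 1 in FKBP4 lie in exons that the files counted, and all those of the other genes named here do. The part of the word in any of these changes was not tested.

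Shown are the copies in DICER1, in AGO1 as the member with the largest positive estimate, and in LSM14A, ERH and RAN as the protein-coding pathway genes that fell most after knockdown. Each stretch of 30 bases is given 5′ to 3′ on the strand of the gene, with the word in capitals, from GENCODE transcripts lifted to hg19. All 29 stretches read, those below among them, were the same in the GRCh37 genome.
DICER1, chr14:95554820-95554849 (minus): ctgtaaaagtgtGCAGTTaacaaggctgga
DICER1, chr14:95553403-95553432 (minus): tccagatcgagcGCAGTTcatgcacaaggc
AGO1, chr1:36389063-36389092 (plus): actagccaaaagGCAGTTttggaaactaca
AGO1, chr1:36392007-36392036 (plus): cattctggactaGCAGTTgccttggggtag
AGO1, chr1:36393947-36393976 (plus): tcgcggctcactGCAGTTtctgcctcctgg
AGO1, chr1:36394060-36394089 (plus): attttttttgtaGCAGTTcggtctcattag
LSM14A, chr19:34718447-34718476 (plus): caaagataaaatGCAGTTacttttgggggt
ERH, chr14:69846890-69846919 (minus): gggggtggaaatGCAGTTtagccatgtcct
RAN, chr12:131360623-131360652 (plus): ggagtgaatgtgGCAGTTtaaaaaataact
RAN, chr12:131360678-131360707 (plus): ctgttttggaacGCAGTTgattccttgagt
RAN, chr12:131361048-131361077 (plus): gtaaatattagtGCAGTTaagctaaagcag
RAN, chr12:131361428-131361457 (plus): ttaagttcttcaGCAGTTcacactacaccg
RAN, chr12:131361698-131361727 (plus): actattcttgtaGCAGTTaggaatcttgag

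In RAN the copies lie 164, 219, 589, 969 and 1239 bases into the 3′ UTR.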

How the data were processed

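Raw counts per gene were deposited for each library. In the study, poly(A) RNA went into TruSeq libraries, and the authors aligned paired-end reads to hg19 (GRCh37) with STAR and assigned them to genes with featureCounts, and their notes also name DESeq2. The tool versions and the strand setting are not given in the sources used here. Deposited fields for gene length were used for RPKM. From the counts, edgeR 4.0.16 (limma 3.58.1, R 4.3.3) gave TMM-scaled CPM and the quasi-likelihood test after filterByExpr, without a term for the isolate. Standard errors were taken as the absolute log2-fold change over the square root of F. The isolate pairs the libraries: the difference between replicates correlated at 0.46 between the groups over 15398 genes. No pair of libraries shared the count of more than 1.25% of tested genes.

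Alternatives were other scaling factors, other filters, DESeq2 1.42.0, RUVs with 1 factor written out from its description, the replicate block and leaving out each library. Levels per kilobase of canonical transcript were added after the data had been seen. The members, lists and word were chosen with earlier results of these data known. Named were all members, HMGB1, TNRC6C, the PIWI genes, pathway genes at an adjusted p below 0.05 and the 3 smallest p of each list. DCP1A, MIR143HG and PECAM1 matched no row. Intervals from 3 counts cover counting error only.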

Additional observations from a re-analysis of the deposited data

Results flagged for a closer look

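In 3 of the named genes the isolates moved in opposite directions, and with 1 library per isolate and group the difference was not tested. XPO5 had a log2 ratio of knockdown over control of 0.03 in I90-10 and −0.15 in I90-79, a difference of −0.18. TNRC6A had −0.15 and 0.29, a difference of 0.43. PIWIL4, at about 1 CPM or less in every library, had −0.73 and 0.24, a difference of 0.97.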

How the results depend on the processing

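Of 32 named genes, 28 kept their direction under all 11 alternatives in which they could be fitted. With each library left out in turn the sign changed for XPO5 (range −0.22 to 0.10, positive without control replicate 2), TNRC6A (−0.05 to 0.20, negative also at −0.02 without knockdown replicate 2), PIWIL2 (−2.10 to 0.10) and PIWIL4 (−0.71 to 0.22). The median log2-fold change of the members lay between 0.21 and 0.27, and that of the other pathway genes between −0.07 and −0.01. Against 0 members up and 0 down, DICER1 alone was called down (1 member) with no filter on low counts, with DESeq2, with RUVs and with the replicate block, and 1 member fell at an adjusted p below 0.05. AGO1 alone (1 member) was called up, with RUVs. Against 0 other pathway genes up and 1 down, the counts were 5 and 13 with no filter, 4 and 9 with DESeq2, 5 and 10 with RUVs, 5 and 14 with the replicate block, and 4 and 8 at an adjusted p below 0.05. The shares of all genes called were computed only for the edgeR fit without the isolate and for the replicate block. Counts from the other fits, those below included, are therefore not set against the background. Upper-quartile factors called 2 other pathway genes down and the filter of 10 counts in every library 0. Leaving out each library in turn gave 0 members, 0 to 2 other pathway genes up and 0 to 4 down. HMGB1 then lay between −3.77 and −3.38, and was no longer called without knockdown replicate 1 (−3.47) or 2 (−3.71). The difference in share ranged from −3.10 to 4.94 points for AGO1, from −5.37 to 6.94 for AGO2, from −1.47 to 0.05 for AGO3 and from −2.36 to 0.38 for AGO4. A group left with 1 library is assumed to vary like the other. The replicate block changed no call beyond those given with the genes and these counts. Every member had at least 587 reads in every library, and the effect of depth was not tested.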
